A study of Mus musculus with 37 samples.

Results

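T cell receptor beta (TRB) clonotypes that carry a cysteine inside the third complementarity-determining region (CDR3) were described across the lymph nodes of 37 mice. The CDR3 opens with a conserved cysteine encoded by the TRBV segment, and that residue was not counted. A clonotype was a member when its deposited amino acid CDR3 held a cysteine anywhere from residue 5 to the fourth residue from the end. This rule, which uses sequence alone, found 6081 of 1704980 clonotypes (0.357%). Of these, 6008 held 1 inner cysteine, 71 held 2, 1 held 3 and 1 held 4. A clonotype here is 1 nucleotide CDR3 with its segments in 1 library. Its reads were amplified from genomic DNA, so they stem from rearranged genes and not from transcripts.

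The mice fell into 9 groups. At d105 there were 6 MMTV-PyMT mice labelled PLX+PTX+aPD-1_R, 4 labelled PLX+PTX+aPD-1_NR, 6 PLX+PTX, 2 PTX and 5 FVBN mice labelled WTNT. At d95 there were 5 PLX+PTX+aPD-1_R, 3 PLX+PTX+aPD-1_NR, 3 PLX+PTX and 3 PTX mice, all MMTV-PyMT. MMTV-PyMT mice carry the polyoma middle T oncogene under the mouse mammary tumour virus promoter and develop mammary tumours. PLX is PLX3397 (pexidartinib), a CSF1R inhibitor given in chow at 40 mg/kg per day from 80 days of age. PTX was injected at 10 mg/kg every 5 days from 85 days of age. The PD-1 antibody (aPD-1) was started at 87 days of age with 1.0 mg and continued with 0.5 mg every 5 days, and a rat IgG2a isotype control is named for the mice without it. The labels do not spell out R, NR or WTNT, and these are used as written. Each library is 1 mouse, but the labels do not say which mice share a litter or cage. The lymph node label could not be checked against marker genes, because only rearranged TRB DNA was amplified.

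The CDR3 of the beta chain is built by joining a TRBV, a TRBD and a TRBJ segment, with bases trimmed from their ends and non-templated (N) bases added between them. Its middle is the stretch that lies closest to the peptide. Cysteine near that middle is known to be common before thymic selection and rare in mature conventional T cells, and it has been linked to self-reactive receptors and to precursors of intraepithelial lymphocytes.

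The nucleotide CDR3s printed here show the forms that the results turn on, 5′ to 3′, with the inner cysteine codons in capitals. The first was found in more libraries than any other member (5 of 37), the second pairs TRBV5 with TRBJ1-6, its most frequent partner among members with at least 10 reads, and the third is short and was found in 3 libraries from 1 form. The next shows the codon at the junction with TRBJ1-2. The fifth had the most reads of any member, the sixth carries the cysteine at the first position of the window, the seventh holds 2 inner cysteines, and the last repeats, further in, the Cys-Ala-Ser that opens most CDR3s.

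TRBV5 and TRBJ1-1, 14 residues: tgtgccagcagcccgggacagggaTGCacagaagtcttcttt

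TRBV5 and TRBJ1-6, 15 residues: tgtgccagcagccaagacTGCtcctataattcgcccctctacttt

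TRBV3 and TRBJ2-7, 10 residues: tgtgccagcagcttaTGTgagcagtacttc

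TRBV19 and TRBJ1-2, 13 residues: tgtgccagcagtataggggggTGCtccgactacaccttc

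TRBV2 and TRBJ2-4, 13 residues: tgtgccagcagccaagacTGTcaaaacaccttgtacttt

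TRBV4 and TRBJ2-7, 14 residues: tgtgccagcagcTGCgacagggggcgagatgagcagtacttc

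TRBV3 and TRBJ1-2, 13 residues: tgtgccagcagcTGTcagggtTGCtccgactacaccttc

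TRBV12-1 and TRBJ2-5, 22 residues: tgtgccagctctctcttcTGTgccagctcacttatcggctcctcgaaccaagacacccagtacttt

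Libraries held 90648 to 2831566 reads. The 23 d105 libraries held 1090573 to 2831566 reads and the 14 d95 libraries held 90648 to 917752, so the day and the depth of a library cannot be told apart. Mouse numbers in the labels fall into blocks: all d95 mice lie in 1 block and all WTNT mice in another, neither shared with other groups, so block and group cannot be told apart in the day and WTNT comparisons. At d105 the PLX+PTX+aPD-1_NR and PTX mice all lay in a block that also held part of the PLX+PTX+aPD-1_R and PLX+PTX mice. The rest of those lay in another block, so block was uneven in the d105 treatment comparisons too. Replicate 1 of d95 PLX+PTX+aPD-1_NR was the shallowest and held 2470 clonotypes, 13 of them members. Reads come from PCR without molecular identifiers, so intervals cover counting error only.

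Inner cysteine was the least frequent of the 20 residues in the window. It was held by 0.357% of clonotypes, against 1.57% for methionine, the next least frequent, and 80.1% for glycine, the most frequent. Counted by reads, members made up 0.0980% of the total. The share differed strongly with the number of reads of the clonotype. Among clonotypes with 1 read, 1.17% were members (4227 of 359844, 95% Wilson interval 1.14% to 1.21%). The share was 0.765% with 2 reads, 0.148% with 3 to 9 reads, 0.0977% with 10 to 99 reads and 0.0825% with at least 100 reads. Among all clonotypes with at least 10 reads, 1012 of 1044619 were members (0.0969%, interval 0.0911% to 0.103%). In the 37 libraries the share among one-read clonotypes ran from 0.686% to 2.45% and the share among those with at least 10 reads from 0.0598% to 0.144%, and these ranges did not overlap.

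Most members were seen once. One read stood behind 69.5% of members and 20.9% of other clonotypes, and the median member had 1 read against 18 for the others. Per library, the one-read share was 67.0% ± 7.75 (SD, n = 37) among members and 20.2% ± 3.02 among others. It was higher among members in 37 of 37 libraries, by 46.8 ± 5.99 percentage points (sign-flip permutation test over libraries, 2-sided, p = 1e-05, the smallest that 100000 resamples can give). No other residue came near this. The next highest one-read share was that of lysine, 27.2%, and the lowest was isoleucine, 16.1%. The share of clonotypes holding a residue, divided by the same share among clonotypes with at least 10 reads, was 3.68 for cysteine and 0.898 to 1.09 for the other 19.

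**Figure D1:**
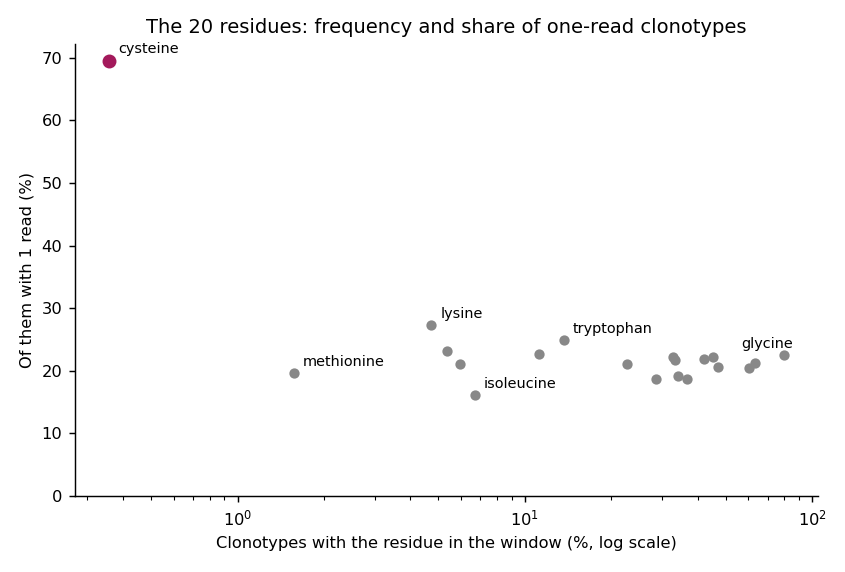
Each point is 1 of the 20 residues, placed by the percent of clonotypes that hold it in the window (x axis, log scale) and by the percent of those clonotypes that had 1 read (y axis). Cysteine stands at 0.357% and 69.5%, and the other 19 residues lie between 16.1% and 27.2% on the y axis.

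Clone size was then compared within the same TRBV and TRBJ pair. The mean log2 read number of members differed from that of other clonotypes of the pair by -2.33 ± 0.33 (SD, n = 37), a ratio of 0.199. It was lower in 37 of 37 libraries, with differences from -3.25 to -1.78 (sign-flip permutation test, p = 1e-05). With the CDR3 length matched as well, the difference was -2.26. Among clonotypes with at least 10 reads the difference was -0.013 ± 0.106, lower in 20 of 37 libraries (sign-flip permutation test, p = 0.455), so the difference did not pass in that class. There the median member had 31 reads and the median other clonotype 36.

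Values that bear on sequencing error moved with the read number. A neighbour was defined as a clonotype of the same library and segment pair that differed by 1 base and had at least 10 times the reads. A clonotype with at least 10 reads thus needs a neighbour of at least 100 reads, which 53330 of 1704980 clonotypes had. The fall of the neighbour share at high read numbers is therefore partly set by the definition. Such a neighbour was present for 16.5% of one-read members and 19.9% of other one-read clonotypes. With 2 reads it was present for 53.0% of members and 25.5% of others, with 3 to 9 reads for 18.97% and 2.14%, and with at least 10 reads for 0% of 1012 members, which allows up to 0.296%, and 0.0401% of others. Over all read numbers cysteine had the highest share of the 20 residues, 16.9%, followed by lysine with 8.28%. The lowest base quality of the CDR3 was at least 36 in 42.3% of one-read members and 55.9% of other one-read clonotypes, and in 100% and 99.99% of those with at least 10 reads. The part of these values in the one-read excess was not tested. Results are therefore given below for all members and for the 1012 members with at least 10 reads, which held 84.9% of the members' reads.

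Members differed from other clonotypes in the segments they used. In the fit over all clonotypes (limma on the log2 ratio of a segment's percent among members over its percent among others, 37 libraries, Benjamini-Hochberg adjustment), 15 of 24 segments passed an adjusted p of 0.05 (62.5%), 2 higher and 13 lower. TRBV5 was the highest of these 24. It was used by 19.3% ± 4.89 of members and 10.6% ± 0.62 of others, a log2 ratio of 0.81 ± 0.07 (SE, limma adjusted p = 1.69e-13), higher in 35 of 37 libraries. TRBJ2-3 was the other segment that rose, with 23.1% ± 6.499 of members and 11.5% ± 0.64 of others (log2 ratio 0.71 ± 0.30, limma adjusted p = 0.0390), higher in 36 of 37 libraries. TRBJ1-6 and TRBJ1-2 followed with 0.55 ± 0.27 and 0.51 ± 0.28, which did not pass at the pseudocount of 0.01% used here (limma adjusted p = 0.0763 and 0.0951), although their share was higher among members in 34 and 33 libraries. Both passed once the shallowest library, d95 PLX+PTX+aPD-1_NR replicate 1, was left out, at 0.81 and 0.77 (limma adjusted p = 5.34e-09 and 1.43e-07), and TRBJ2-3 was then at 1.01 (limma adjusted p = 2.22e-17). TRBJ2-3 lost its call, with an adjusted p of 0.0501 to 0.0559, when any 1 of 9 other libraries was left out: d105 PLX+PTX replicate 1, d105 WTNT replicate 5, d95 PLX+PTX+aPD-1_R replicates 1, 3, 4 and 5, d95 PLX+PTX+aPD-1_NR replicate 2, d95 PLX+PTX replicate 3 and d95 PTX replicate 1. The lowest log2 ratios were those of TRBV23 (-2.97 ± 0.54), TRBV26 (-2.91 ± 0.54), TRBJ2-2 (-2.23 ± 0.49) and TRBJ1-5 (-1.72 ± 0.49). Mean shares of members and of others were 0.633% and 0.932% for TRBV23 and 1.91% and 4.75% for TRBV26. They were 3.63% and 8.19% for TRBJ2-2, and 1.32% and 1.54% for TRBJ1-5. Where a library had no member of a segment, the pseudocount set the ratio. TRBV23 had no member in 17 libraries, and its ratio was -1.50 with a pseudocount of 0.1% in place of 0.01%. With 0.1% the order of the lowest changed, to -2.09 for TRBV26, -1.77 for TRBJ2-2, -1.50 for TRBV23, -1.12 for TRBJ2-5 and -0.93 for TRBJ1-5, which had no member in 9 libraries. Without the filter on rare segments 23 of 34 passed (67.6%). The highest was then TRBV12-1, assigned to 5.30% ± 4.39 of members and 0.0125% of others (log2 ratio 7.02 ± 0.52, limma adjusted p = 2.38e-14), higher in 33 libraries. It was assigned to 0.0293% of all clonotypes, and 361 of its 369 members had 1 read. Whether these assignments are right was not tested.

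Segment use was also fitted for clonotypes with at least 10 reads. With the libraries of a group pooled, so that each of 9 groups gave 1 value, 15 of 24 segments passed (62.5%), 4 higher and 11 lower, with a pseudocount of 0.1%. With that pseudocount the fit over all clonotypes called 17 of 24 (70.8%), 4 higher and 13 lower: TRBV5 was at 0.81, TRBJ2-3 at 0.79, TRBJ1-6 at 0.62 (limma adjusted p = 0.00398) and TRBJ1-2 at 0.59 (limma adjusted p = 0.00698). The values of the 2 fits are set side by side here, and their difference was not tested. TRBJ1-6 was used by 26.5% ± 5.67 of these members and 5.34% ± 0.78 of other such clonotypes (SD, n = 9 groups, log2 ratio 2.28 ± 0.12, limma adjusted p = 1.51e-07). TRBV5 was used by 37.7% ± 7.18 and 8.54% ± 0.46 (2.11 ± 0.12, limma adjusted p = 2.28e-07), and TRBJ1-2 by 17.96% ± 6.07 and 4.91% ± 0.53 (1.79 ± 0.17, limma adjusted p = 9.21e-06). All 3 were higher in 9 of 9 groups. TRBV20 also rose (0.94 ± 0.33, limma adjusted p = 0.0320), while over all clonotypes it was at -0.73 with the same pseudocount and -1.43 with 0.01%, with no member in 8 libraries and mean shares of 1.33% and 1.34%. TRBJ2-3 was at 4.73% ± 2.40 of members and 9.22% ± 0.71 of others (-1.49 ± 0.60, limma adjusted p = 0.0502), which did not pass, and TRBV24 was at -2.08 ± 0.17 (limma adjusted p = 2.90e-06), against 0.10 ± 0.05 over all clonotypes (limma adjusted p = 0.0963).

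**Figure D2:**
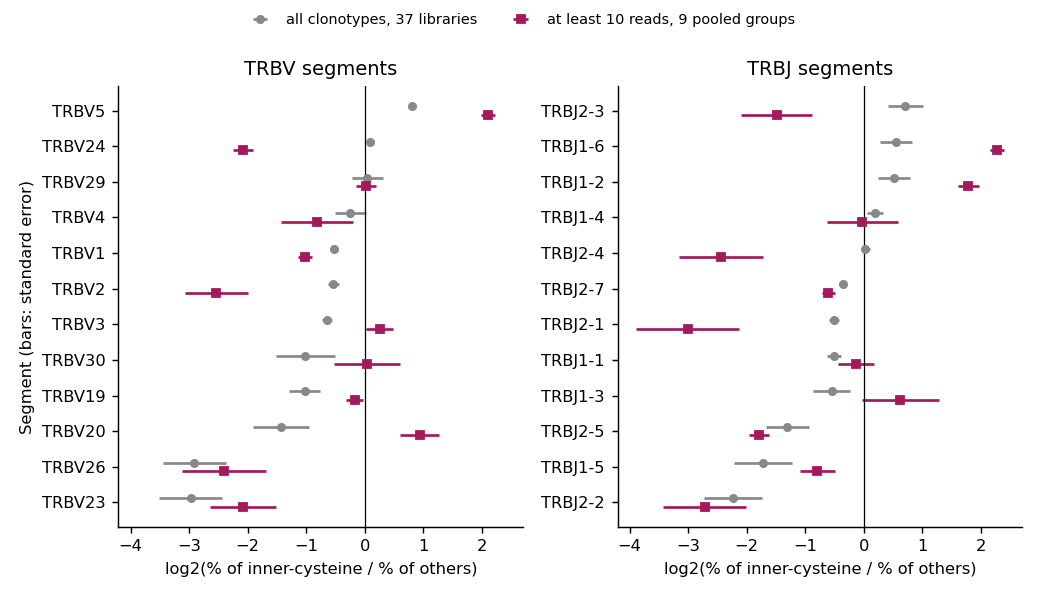
Log2 ratio of the percent of members using a segment over the percent of other clonotypes using it (x axis), for 12 TRBV and 12 TRBJ segments (y axis), with standard errors. Circles are all clonotypes over 37 libraries and squares are clonotypes with at least 10 reads over 9 pooled groups, with pseudocounts of 0.01% and 0.1%. TRBV24, TRBJ2-3, TRBJ2-4 and TRBJ1-4 sit above 0 for the first and below it for the second.

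Seen from the segments, the chance of finding an inner cysteine varied widely. Among clonotypes with at least 10 reads, 410 of 90650 TRBV5 clonotypes were members (0.452%, Wilson interval 0.411% to 0.498%), while TRBV2 stood at 0.0243% and TRBV24 at 0.0250%. TRBV5 lies on chromosome 6 with the rest of the TRB locus (RefSeq annotation of GRCm38.p6). By joining segment, TRBJ1-6 stood at 0.502% (0.445% to 0.567%) and TRBJ1-2 at 0.373%, against 0.0269% for TRBJ2-2 and 0.0299% for TRBJ2-5. Among the 109 segment pairs with at least 1000 such clonotypes, TRBV5 with TRBJ1-2 was highest with 71 of 4218 (1.68%), followed by TRBV5 with TRBJ1-3 at 1.62% and TRBV5 with TRBJ1-6 at 1.59%. None of 15925 clonotypes of TRBV24 with TRBJ2-2 was a member.

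The deposited reference points mark where each aligned segment begins and ends, and so which bases of the codon were assigned to it. Whether those bases match the germline sequence of the segment was not checked. Of the 1023 inner cysteines with at least 10 reads, the last base alone was assigned to TRBJ in 46.6%. The printed TRBV5 and TRBJ1-1 and TRBV19 and TRBJ1-2 sequences are of this kind. In 25.1% no base of the codon was assigned to a segment, as in the printed TRBV5 and TRBJ1-6 sequence. In 7.53% the first base alone was assigned to TRBV, as in the printed TRBV4 and TRBJ2-7 sequence. The whole codon lay within the stretch assigned to TRBJ in 1.37% and within that assigned to TRBD in 1.66%. Among 4285 cysteines of one-read members the whole codon lay within the TRBJ stretch in 12.5%, and the last base alone in 22.7%. A further class had the last 2 bases in TRBJ, 14.7% of these 4285. With at least 10 reads that class included 38 of 59 TRBJ2-3 and 18 of 35 TRBJ2-4 cysteines. The shares for the last base alone thus leave out part of the codons that end in TRBJ. The codon was TGC in 52.9% of the cysteines with at least 10 reads and in 39.4% of those with 1 read.

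All 20 residues were found on either side of the cysteine. With at least 10 reads, the residue before it was glycine in 40.3%, aspartate in 12.6% and serine in 11.5%. The residue after it was serine in 17.8%, glutamate in 13.6% and threonine in 10.8%. In one-read members glycine also led before the cysteine (32.6%), but alanine led after it (23.2%, or 15.05% without second CAS motifs). The cysteine lay within 2 residues of the middle of the CDR3 in 78.3% of cases with at least 10 reads, while 64.2% of all window residues of such clonotypes did. Its share ranked 5 among the 20 residues, below tryptophan (92.8%), glycine (89.8%), valine (88.8%) and lysine (84.7%). In CDR3s of odd length, where the middle is a single residue, 25.4% of cysteines lay 1 residue after it, where 14.4% of window residues lay. The position 4 residues after it held 0.407% of cysteines and 7.21% of window residues. TRBV5 members held it most often at residue 7, in 122 of 411 cysteines.

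Members were longer. With at least 10 reads the mean CDR3 length was 14.6 ± 2.36 residues (SD over clonotypes) against 13.9 ± 1.39 for others. The window of the rule widens with the CDR3, so a longer CDR3 has more positions that can make it a member. The shares by length are not corrected for this, and its part in the difference was not tested. The share of members was lowest at 13 residues (0.0506%, Wilson interval 0.0422% to 0.0608%), reached 0.110% at 15, 0.286% at 17 and 0.515% at 18, and was also high at 10 residues (0.377%, 25 of 6629). The printed TRBV3 and TRBJ2-7 sequence belongs to this short class.

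**Figure D3:**
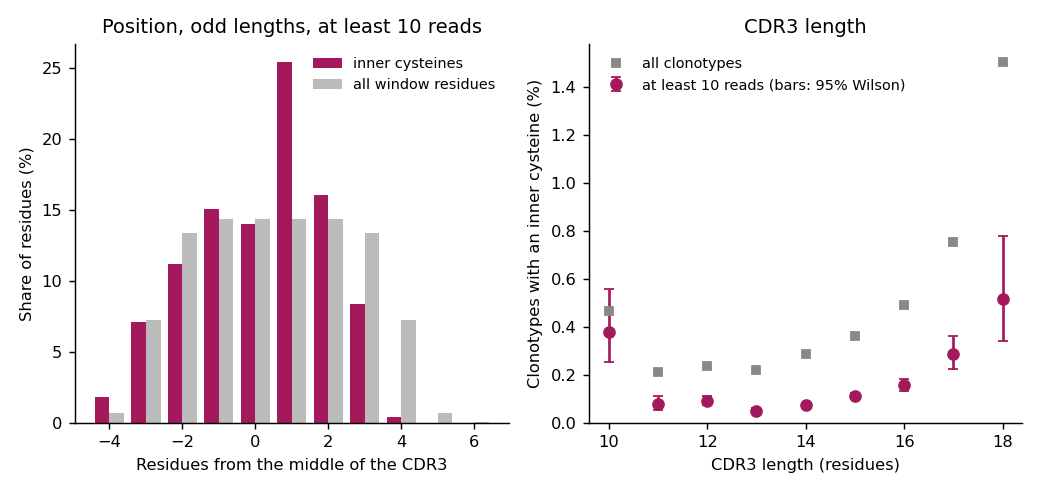
Left, share of 492 inner cysteines and of all window residues (y axis, percent) at each position from the middle (x axis), in clonotypes of odd length with at least 10 reads. Right, share of clonotypes with an inner cysteine (y axis, percent) by CDR3 length (x axis), with 95% Wilson intervals for clonotypes with at least 10 reads: the lowest is 0.0506% at 13 residues.

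A class of long members carried a second Cys-Ala-Ser, called here a second CAS motif. They numbered 423 (6.96% of members) in 35 libraries. Their median length was 20 residues, 410 had 1 read and 4 had at least 10. TRBV12-1 was the assigned segment in 366 of them. Of 500 TRBV12-1 clonotypes in all, 369 were members (73.8%), and 361 of these had 1 read. The printed TRBV12-1 sequence, with 30 reads in d95 PLX+PTX+aPD-1_NR replicate 2, was chosen after its values were seen, as the one with most reads.

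At least 2 inner cysteines were held by 73 clonotypes (1.20% of members), 9 of them with at least 10 reads. The cysteines were adjacent in 21 and 2 residues apart in 23. The printed TRBV3 and TRBJ1-2 sequence had 81 reads in d105 PLX+PTX+aPD-1_R replicate 2. A TRBV1 and TRBJ1-1 member had 43 reads in d95 PLX+PTX+aPD-1_NR replicate 3, and a TRBV29 and TRBJ2-7 member had 45 in d105 WTNT replicate 4. Each was found in 1 library.

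Members were rarely shared between mice. Clonotypes were merged by TRBV, TRBJ and amino acid CDR3, which gave 5946 member clonotypes. Of these, 81 (1.36%, Wilson interval 1.10% to 1.69%) were found in at least 2 libraries, against 19.9% of other clonotypes and 18.2% of others weighted to the members' segments and length. With at least 10 reads in a library, 38 of 988 (3.85%) were shared, against 28.6% of others and 22.6% after the same weighting. Because 69.5% of members have 1 read, the first comparison is also one of clone size. Among the 81 shared members, 62 had more than 1 nucleotide form and 25 were found at both days. The matching counts for other shared clonotypes are not given here, so these are no mark of members. Over all merged clonotypes, shared or not, 1.77% of members and 19.4% of others had more than 1 form.

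The most widely shared member was that of TRBV5 and TRBJ1-1 printed above, in 5 of 37 libraries. It had 1 read each in d105 PLX+PTX replicates 1 and 2, 22 and 14 reads in d105 WTNT replicates 1 and 5, and 11 reads in d95 PLX+PTX+aPD-1_R replicate 3, in 3 nucleotide forms. The printed TRBV5 and TRBJ1-6 member had 31 reads in d105 PLX+PTX+aPD-1_NR replicate 3, 53 in d95 PLX+PTX replicate 1 and 31 in d95 PTX replicate 3, each from another nucleotide form. The printed TRBV3 and TRBJ2-7 member had 114, 53 and 67 reads in 3 libraries, d105 PLX+PTX replicate 1, d105 WTNT replicate 4 and d95 PLX+PTX+aPD-1_R replicate 4, all from 1 form. These 3 libraries span both days, and MMTV-PyMT and FVBN mice. The printed TRBV19 and TRBJ1-2 member was found in d95 PLX+PTX replicate 1 (83 reads) and d95 PTX replicate 3 (64 reads), and another of the same pair, 14 residues long, in d105 PLX+PTX+aPD-1_R replicate 5 (77 reads) and d95 PLX+PTX+aPD-1_NR replicate 2 (93 reads). A TRBV24 and TRBJ2-3 member reached 3 libraries with 1, 2 and 1 reads. No member was present in enough libraries to enter the test of shared clonotypes between groups, which held 5242 clonotypes for d105, 964 for d95 and 2394 for the days together.

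The largest members were small parts of their libraries. The printed TRBV2 and TRBJ2-4 member had 430 reads in d105 PLX+PTX replicate 2, or 0.0155% of reads (Wilson interval 0.0141% to 0.0170%). That of TRBV4 and TRBJ2-7 had 216 reads in d105 PTX replicate 2 (0.0198%). At d105 the highest in PLX+PTX+aPD-1_R was a TRBV29 and TRBJ1-2 member with 190 reads in replicate 3 (0.00776%), and in PLX+PTX+aPD-1_NR a TRBV3 and TRBJ1-6 member with 134 reads in replicate 2 (0.00808%). In WTNT it was a TRBV19 and TRBJ2-7 member with 106 reads in replicate 3 (0.00755%). At d95 the highest shares were 0.0342% for a TRBV3 and TRBJ1-1 member in PLX+PTX+aPD-1_NR replicate 1, from 31 reads, and 0.0342% for a TRBV19 and TRBJ2-7 member in PLX+PTX replicate 3, from 76 reads. In PTX replicate 3 the printed TRBV19 and TRBJ1-2 member took 0.0223%, and in PLX+PTX+aPD-1_R replicate 4 another member of that pair took 0.0217%, from 103 reads.

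Across the 37 mice, the share of clonotypes with an inner cysteine ran from 0.248% to 0.526%. At d105 it ran from 0.317% to 0.444% in PLX+PTX+aPD-1_R (median 0.366%), was 0.494%, 0.355%, 0.302% and 0.327% in PLX+PTX+aPD-1_NR, and ran from 0.304% to 0.503% in PLX+PTX (median 0.373%). It was 0.493% and 0.494% in PTX, and 0.312%, 0.378%, 0.323%, 0.327% and 0.378% in WTNT. At d95 it was 0.328%, 0.348%, 0.248%, 0.278% and 0.280% in PLX+PTX+aPD-1_R, and 0.526%, 0.273% and 0.249% in PLX+PTX+aPD-1_NR. The value of 0.526% is that of the shallowest library and rests on 13 members (Wilson interval 0.308% to 0.898%). It was 0.294%, 0.280% and 0.302% in PLX+PTX, and 0.314%, 0.264% and 0.312% in PTX. The groups overlapped in all 8 comparisons.

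None of 16 tests, of the share of clonotypes and of the share of reads in 8 comparisons, passed an adjusted p of 0.05. Between R and NR at d105 the means were 0.374% ± 0.046 (n = 6) and 0.369% ± 0.086 (n = 4; exact permutation test, 2-sided, p = 0.910). Against PLX+PTX alone (0.379% ± 0.073, n = 6), the 10 aPD-1 mice averaged 0.372% ± 0.060 (exact permutation p = 0.834). PTX mice averaged 0.494% ± 0.001 (n = 2), 0.114 percentage points above PLX+PTX (exact permutation p = 0.143, adjusted 0.762). MMTV-PyMT mice averaged 0.388% ± 0.071 (n = 18) and WTNT mice 0.344% ± 0.032 (n = 5; exact permutation p = 0.196). At d95 the exact permutation p was 0.554 for R against NR, 0.721 for aPD-1 and 0.800 for PLX3397, a comparison of 3 with 3 mice that cannot go below 0.10.

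The smallest p of the 16 was that between days. Over the same treatments the d105 mice averaged 0.388% ± 0.071 (n = 18) and the d95 mice 0.307% ± 0.069 (n = 14), with days permuted within treatments (permutation test, p = 0.00481, adjusted 0.0770). This difference changed with the libraries, the depth and the read class. Without d95 PLX+PTX+aPD-1_NR replicate 1 it passed (0.0979 percentage points, permutation test adjusted p = 0.00144). With the 13 other d95 libraries and all 18 d105 libraries thinned to 200000 reads, which the same shallow library does not reach, it turned round, with 0.150% ± 0.033 at d105 and 0.223% ± 0.038 at d95 (permutation test adjusted p = 0.00032). Thinning took a larger part of the reads from each d105 library than from any d95 library. Before thinning, 69.5% of members and 20.9% of other clonotypes had 1 read. The part of this in the turned direction was not tested. Among clonotypes with at least 10 reads the share was 0.0978% ± 0.0170 at d105 and 0.109% ± 0.0235 at d95 (permutation test adjusted p = 0.765). At d105 the share of clonotypes was related to the reads per clonotype of the library over 23 libraries (Pearson r = 0.70, permutation p = 0.00022, adjusted 0.00088; Spearman rho = 0.81, permutation p = 1e-05, adjusted 4e-05; r = 0.79 without the 2 most distant libraries). For clonotypes with at least 10 reads r was -0.015 (permutation p = 0.945). At d95 r was 0.51 over 14 libraries (permutation p = 0.0569) and 0.08 without the 2 most distant. These 4 relations were adjusted together. The share of all clonotypes and the reads per clonotype are both divided by the library's number of clonotypes. The permutation p of their relation, at either day, does not allow for this shared denominator.

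**Figure D4:**
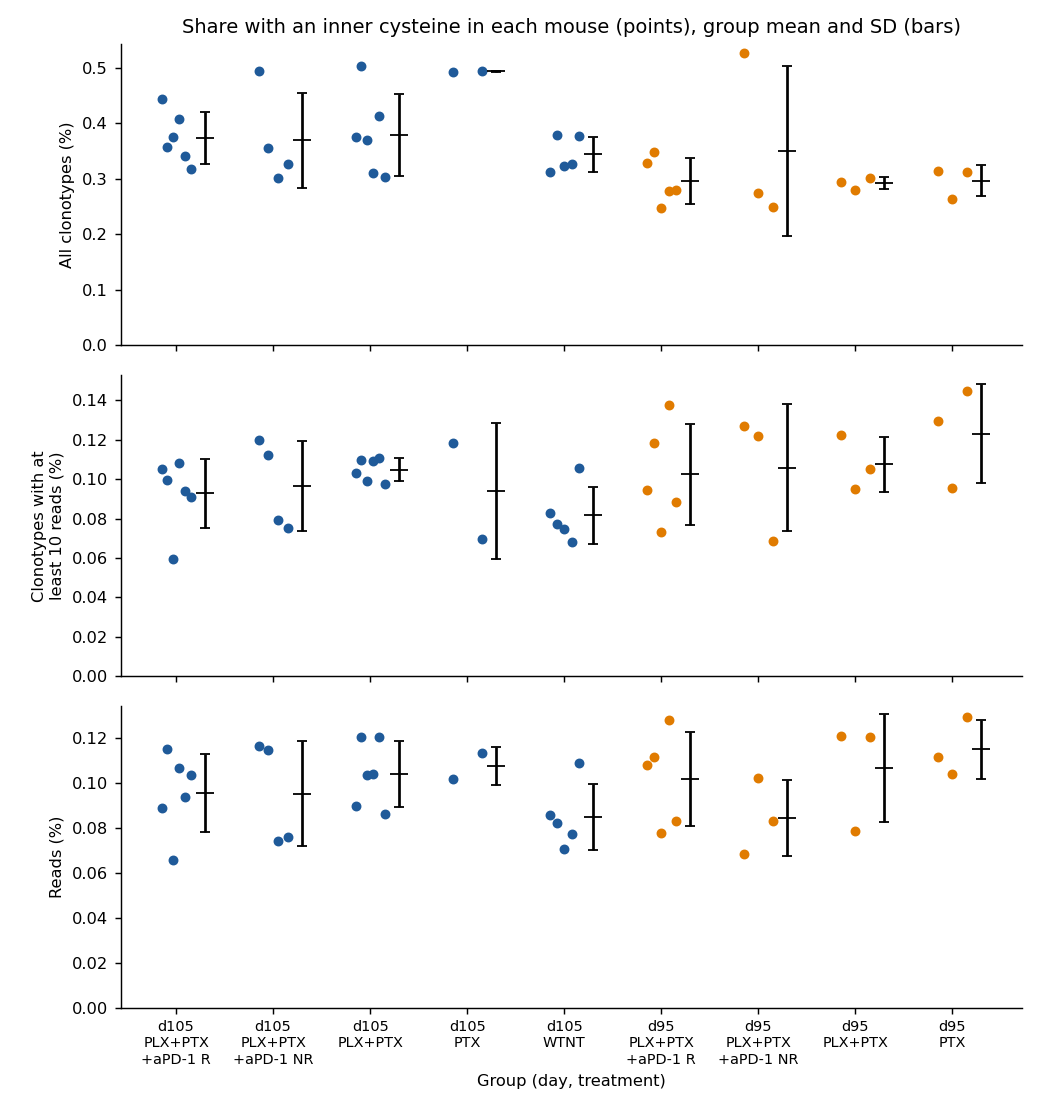
Share with an inner cysteine in each of 37 mice (points), by group (x axis), with group mean and SD: of all clonotypes (top), of clonotypes with at least 10 reads (middle) and of reads (bottom), all in percent from 0. In the top panel the 2 d105 PTX mice sit at 0.493% and 0.494%, and the d95 PLX+PTX+aPD-1_NR mouse at 0.526% is the shallowest library.

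Counted by reads, the groups also overlapped in all 8 comparisons. Means ran from 0.0845% ± 0.0169 (n = 3) in d95 PLX+PTX+aPD-1_NR to 0.115% ± 0.0130 (n = 3) in d95 PTX. MMTV-PyMT mice at d105 averaged 0.0997% ± 0.0166 (n = 18) and WTNT mice 0.0849% ± 0.0145 (n = 5; exact permutation p = 0.0854, adjusted 0.684). Between days the means were 0.0997% (n = 18) and 0.102% (n = 14; permutation p = 0.720). None of 6 permutation tests of the difference in a treatment effect between days passed (adjusted p = 0.800 each). Days were permuted within treatments, so the null is that no treatment differs between days. With few mice per group, these tests do not show that the effects were equal.

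Cysteine was also set against the other 19 residues in the same groups, as the percent of clonotypes that hold each (limma, adjusted over 20 residues). Between days 15 of 20 residues passed (75%), 10 higher at d105 and 5 lower, and cysteine was among those that rose (log2 0.35 ± 0.09 (SE), limma adjusted p = 0.00151). Its change was the largest of the 20 in size, but with 75% called a call is no mark of cysteine. With clonotypes of at least 10 reads it was -0.13 ± 0.10 (limma adjusted p = 0.234; 60% of residues called), and by reads -0.01 ± 0.08 (limma adjusted p = 0.871; 55% called). In the 7 other comparisons cysteine did not pass, with limma adjusted p of 0.229 to 0.935. Of all residues 1 passed there, tryptophan in MMTV-PyMT against WTNT mice (5% of 20 called).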

How the data were processed

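Each of the 37 deposited tables lists the TRB clonotypes of 1 mouse. The clone count is the number of reads per clonotype as deposited by the authors. The normalized and nb clone counts and the lowest base quality are scores rounded by the authors, per the file headers and values, and how they were derived is not given in the sources used here. The aligner and genome build are likewise not given in the sources used here. The members and lists were chosen with earlier results of these data known.

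Shares per mouse were compared with exact permutation tests, or 100000 resamples where stated, adjusted over 16 tests (Benjamini-Hochberg). Residues and segments were fitted with limma 3.58.1 in R 4.3.3, with a pseudocount of 0.01% and segments of at least 0.1% on average, and edgeR 4.0.16 was an alternative. In simulated data of 20 residues per fit for d105 R against NR, 100% of residues changed 1.5-fold were recovered and 0.75% of unchanged ones were called. The simulated counts were binomial draws from shares common to all mice, with no added spread between mice. These rates therefore do not carry over to the real libraries. Libraries are separate mice, so p-values measure the spread between these mice, except in the 10-read pooled segment fit. In that fit the libraries of a group were pooled, so its p-values measure the spread between groups of unequal size. Clonotypes named are the 10 members found in the largest numbers of libraries, the highest in each group and 3 with at least 2 inner cysteines. The 10-read pooled segment fit, the 10-read residue fit and the settings on base quality, neighbours and second CAS motifs were chosen after seeing the data. Trbv5 was placed with RefSeq GRCm38.p6.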

Additional observations from a re-analysis of the deposited data

How the results depend on the processing

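Differences between groups are in percentage points, first group minus second. For the share of clonotypes, counting those with at least 10 reads turned R against NR at d105 to -0.00378, PLX3397 at d105 to 0.0109, aPD-1 at d95 to -0.00367 and the days to -0.0109, and also asking for a base quality of at least 36, which removed no member of that class, gave -0.00378, 0.0109, -0.00367 and -0.0109. Thinning to 200000 reads, which left out 1 library, turned R against NR at d105 to -0.0146, aPD-1 at d95 to -0.0506, PLX3397 at d95 to 0.0183 and the days to -0.0730. Merged clonotypes gave 0.000782 for PLX3397 at d95 and 0.0969 for the days, and standardised segment use gave 0.0798 for the days, both then called (adjusted permutation p = 0.0202 and 0.0227). Within 1 block of mouse numbers R against NR at d105 was -0.00945 and aPD-1 0.0245, and by reads R against NR was -0.00283. For the share of reads, the normalized clone count gave -0.00852 (R against NR, d105), 0.00200 (aPD-1, d105), -0.00469 (MMTV-PyMT against WTNT) and 0.00602 (days), the nb clone count -0.00959 (R against NR, d105) and 0.00183 (days), and standardised segment use -0.00105 (R against NR, d105). Apart from the days when merged, standardised or thinned, none of these was called. The causes were not tested.

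Leaving out 1 mouse at a time, the share of clonotypes differed by -0.0184 to 0.0455 (R against NR, d105), -0.0223 to 0.0176 (aPD-1, d105), -0.139 to -0.0993 (PLX3397, d105), 0.0363 to 0.0529 (MMTV-PyMT against WTNT), -0.104 to 0.0346 (R against NR, d95), -0.00577 to 0.0340 (aPD-1, d95), -0.0214 to 0.00399 (PLX3397, d95) and 0.0743 to 0.0979 (days). The share of reads differed by -0.00671 to 0.00743, -0.0122 to -0.00525, -0.00934 to 0.00237, 0.0113 to 0.0208, 0.00910 to 0.0259, -0.0254 to -0.00434, -0.0153 to 0.00568 and -0.00480 to -0.000114 in the same order. Residues called ranged from 0 to 2 (MMTV-PyMT against WTNT), 0 to 1 (aPD-1, d105 and d95), 14 to 17 (days) and stayed at 0 in the others.

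The clone size difference was -0.013 with at least 10 reads (sign-flip permutation p = 0.455). Residues called were 1 for R against NR and 1 for PLX3397 at d105 both by reads and with at least 10 reads, and 0 for MMTV-PyMT against WTNT by reads. Cysteine between days was -0.014 by reads and -0.13 with at least 10 reads. Segments called were 23 without the filter. TRBV24 was -1.94 by reads and -2.08 with at least 10 reads, TRBJ2-3 -0.80 and -1.49, and TRBV20 0.94 with at least 10 reads. The fit of shared clonotypes had no member, so its pseudocount, edgeR, DESeq2 and leave-one-out settings were not run. No paired analysis was possible because the labels carry no replicate numbers, and replicates were numbered in sample order. The mouse number blocks pair no mice.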
